A study of Mus musculus with 12 samples.

Results

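The genes described here encode the proteins of the cytosolic ribosome, in mouse embryonic stem cells (ESCs) before and after differentiation in culture. They were chosen by symbol alone: every row of the deposited count table named Rpl or Rps with a number and, in some, a letter, together with Rplp0, Rplp1, Rplp2 and Rpsa. The rule found 81 of the 23336 gene symbols in the table, 49 of the large subunit and 32 of the small subunit. Of these, 77 had enough counts to be tested, 45 of the large and 32 of the small subunit.

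The ribosome is built from ribosomal RNA and a set of ribosomal proteins, most of them present in a single copy in each particle. The small subunit decodes the messenger and the large subunit forms the peptide bond. Their genes are scattered over the genome, are among the most highly expressed in growing cells and are kept in proportion to one another. Their messengers typically begin with a C followed by an unbroken run of pyrimidines, the terminal oligopyrimidine (TOP) motif, through which their translation follows nutrient and growth signals by way of mTOR and LARP1. ESCs are dividing cells with a large demand for ribosomes.

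The libraries came from a study of Rlim, an X-linked ubiquitin ligase, and X chromosome inactivation. They covered 3 lines: wild-type (WT) female cells (Pgk12.1), female cells labelled RlimKO, and WT male cells (E14), all with the strain label C57BL/6. Undifferentiated cells grew in ESC medium with LIF. Differentiated cells were taken through embryoid bodies without LIF for 3 days and then cultured for 6 days at 7.5% oxygen. Each of the 6 groups had 2 libraries. Because each genotype and sex was 1 line, line, sex and genotype cannot be told apart, and LIF, oxygen and time cannot be told apart from differentiation. Nothing in the labels says that the replicates of a group were grown separately. The p-values here therefore reflect the spread between the sequenced samples alone, and that spread may be technical.

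Libraries held 2011919 to 5401940 gene counts, of which the ribosomal RNA row Rn45s took 6.36% to 67.7%. Rn45s and Lars2 were left out of library size. Rlim was at 324 and 302 counts per 1e+06 (CPM, scaled by TMM) in the undifferentiated RlimKO-labelled libraries and at 538 and 557 CPM in the WT female ones, a fall by 0.81 ± 0.15 (log2 ± SE, edgeR adjusted p = 0.0424). In the differentiated RlimKO-labelled libraries it stood at 538 and 567 CPM, against 498 and 510 CPM in the WT female ones, so the count of the gene was not lower there. Which part of Rlim was deleted is not given in the sources used here, so counts outside it would not check the label. The 2 differentiated male libraries differed from each other by a chi-square of 26.9 per degree of freedom, where the other 5 pairs lay between 1.92 and 2.44. Replicate 2 of this pair bears the number 8 in its sample title, where the other 11 libraries bear 37 to 53. It had the lowest Rn45s share, and its summed CPM was 4971 over 6 fibroblast or feeder markers and 78.4 over 6 blood and endothelial markers, against 14325 and 796 in replicate 1. Fits without replicate 2 are given below, and why it differed from replicate 1 was not tested. Summed CPM of 11 pluripotency markers was 4429 to 5110 in undifferentiated and 141 to 521 in differentiated libraries, and that of 6 fibroblast or feeder markers 1.18 to 106 and 4971 to 17028. In such bulk samples fewer cells of a type and less RNA per cell cannot be told apart.

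The starts of most members examined show a pyrimidine run, the feature by which this family is known. RefSeq start windows (GRCm38.p6) were available for 61 members, and a run of at least 8 letters C or T that opens with C, on the gene's strand, began within 30 bases of the annotated start in 38 of them, 62.3%. The same was found in 2224 of 9617 other tested genes, 23.1%, in 15.5% of 58 ribosome biogenesis genes and in 28.4% of 67 mitochondrial ribosomal protein genes. It was found in 4 of 5 other genes of the ribosome, 80%. Of 11 other translation genes listed for their TOP messengers 4 had it, 36.4%, so this match of letters missed most of that list. Each line below gives 30 bases, 5′ to 3′, from 10 bases before the longest run near the start that opens with C. Runs of at least 8 letters are in capitals. The lines of Rpl4, Rpl36a, Rpl10 and Rps4x therefore do not hold the annotated start itself. Rps6, Rplp2 and Rpl13a have the run at or close to the annotated start, Rpl4 has it further downstream, Rps15a is the only member called higher on differentiation in any line, and Rpl36a, Rpl10 and Rps4x are the X-linked genes with the largest falls in the female lines.
Rps6 (chr4:86857349-86857378, minus strand): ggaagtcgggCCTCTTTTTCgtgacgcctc
Rplp2 (chr7:141447637-141447666, plus strand): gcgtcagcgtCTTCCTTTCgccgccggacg
Rpl4 (chr9:64173403-64173432, plus strand): aggagcgtggCCTTCTCCTCTCCCCgtcat
Rpl13a (chr7:45128724-45128753, minus strand): tgcgacaagaCCTCCTCCTTTCCCaggcgg
Rps15a (chr7:118116143-118116172, minus strand): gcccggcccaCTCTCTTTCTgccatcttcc
Rpl36a (chrX:134585671-134585700, plus strand): gcggctctagCCTCTCTCTTTCCgagctgc
Rpl10 (chrX:74270784-74270813, plus strand): ctggctgtaactctatggttgttacagtgg
Rps4x (chrX:102189345-102189374, minus strand): gcgcgcgcagcctccgaccctaatttcttc
The run of Rps6 was 10 bases long and opened 1 base before the annotated start, that of Rplp2 4 bases and that of Rps15a 15 bases before it. Counting the start as base 1, the runs of Rpl13a, Rpl4 and Rpl36a opened at bases 3, 27 and 28. A run is a match of letters near an annotated start and does not show where transcription began in these cells. The absence of a run in Rpl10 or Rps4x says only that no such run opened within 30 bases of the annotated start.

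The ribosomal protein genes took a smaller part of the messenger pool after differentiation in each line. With Rn45s and Lars2 set aside, they held 4.84% and 5.09% of counts in the undifferentiated WT female libraries, 4.89% and 4.92% in the RlimKO-labelled ones, and 5.07% and 4.99% in the male ones. After differentiation the shares were 3.08% and 3.10% in the WT female, 3.19% and 3.56% in the RlimKO-labelled, and 2.63% and 3.42% in the male libraries. No differentiated library reached the lowest undifferentiated one, and the male pair was the widest. The 6 undifferentiated libraries lay within a narrow band whatever their line.

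**Figure D1:**
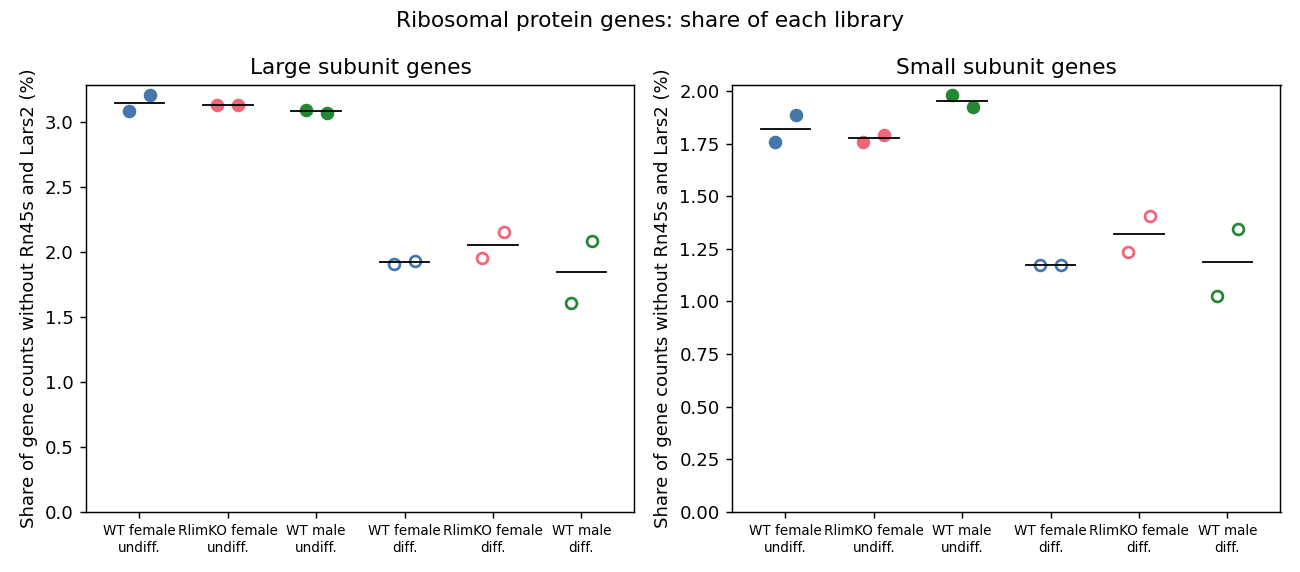
Share of each library's gene counts, without Rn45s and Lars2, held by the large subunit genes (left) and the small subunit genes (right), in percent. Each point is 1 library (filled, undifferentiated; open, differentiated), and the bar is the mean of the 2. All 6 differentiated libraries lie below all 6 undifferentiated ones in both panels.

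The level of this share depended on the denominator. With Rn45s and Lars2 kept, the mean shares were 2.42%, 2.32% and 2.35% in the undifferentiated WT female, RlimKO-labelled and male groups, and 1.69%, 1.51% and 2.61% in the differentiated ones, so the mean turned direction in the male line, where the libraries overlapped (1.92% and 2.79% before, 2.01% and 3.21% after). In that line Rn45s took 55.0% and 39.3% of the undifferentiated and 22.5% and 6.36% of the differentiated libraries. Fold changes below are therefore on the scale without these rows.

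More members fell on differentiation than rose in every line. Rising and falling genes are those for which edgeR's quasi-likelihood test gave a Benjamini-Hochberg adjusted p, over all 12417 tested genes, below 0.05. In WT female cells 49 of the 77 fell and 0 rose, against a background of 24.3% of all tested genes that fell and 25.8% that rose. In RlimKO-labelled cells 40 fell and 1 rose (background 25% lower, 24.5% higher), and in male cells 53 fell and 0 rose (background 25.7% lower, 29.2% higher).

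The median log2 fold change of the tested members was -0.61 in WT female, -0.47 in RlimKO-labelled and -0.60 in male cells, against 0.02, -0.01 and 0.05 over all tested genes. The middle of their distribution was narrow: quartiles ran from -0.84 to -0.37, from -0.73 to -0.14 and from -0.84 to -0.39, while those of all genes ran from -0.78 to 0.96 in WT female cells. Both differentiated libraries lay below both undifferentiated ones for 69, 55 and 63 of the 77 members in the 3 lines. Of all tested genes 50.1%, 49.4% and 54.9% were called in either direction, and 38.7%, 39.3% and 37.2% had libraries apart in this direction. The fold change was negative in all 3 lines for 61 members, 79.2%, against 37.1% of all tested genes. The 3 comparisons use separate libraries.

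**Figure D2:**
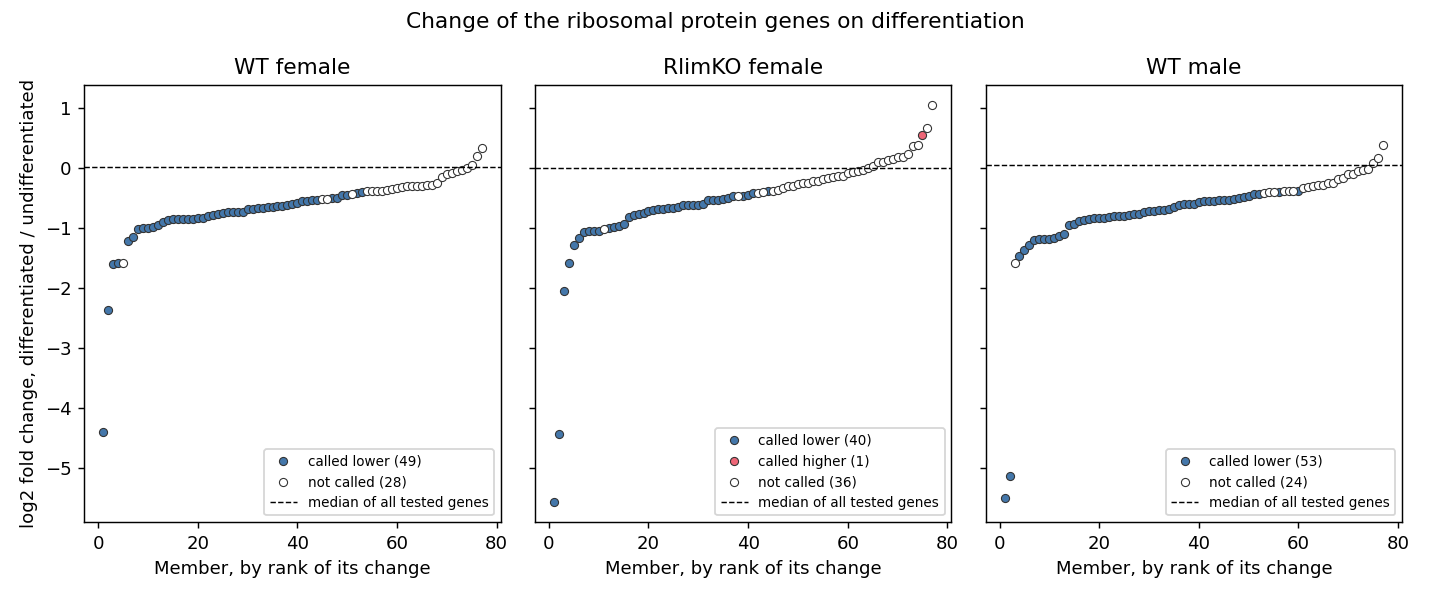
Log2 fold change on differentiation of the 77 tested ribosomal protein genes in each line, ranked by size. Filled points were called at an adjusted p below 0.05 and the dashed line is the median of all tested genes; most members lie between -1.2 and 0, with Rpl10l and Rpl39l far below.

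Of the 77 members, 28 fell in all 3 lines, 21 in a pair of lines, 16 in a single line and 12 in none. The 28, and so the falls of each line, include Rpl10l and Rpl39l, which passed the filter only through undifferentiated libraries. Over all tested genes the shares were 15.5%, 8.75%, 10.8% and 64.9%, and for members 36.4%, 27.3%, 20.8% and 15.6%. The 12 that fell in no line were Rpl9, Rpl15, Rpl23a, Rpl32, Rps3, Rps9, Rps10, Rps14, Rps16, Rps19, Rps27 and Rps27a, named after their values were seen. A missing call does not show an unchanged level: Rps27, with 90 counts in all, had log2 fold changes from -1.59 to -1.03. Rps19, whose human counterpart is mutated in Diamond-Blackfan anaemia, was at 312 to 367 CPM in undifferentiated and 300 to 463 CPM in differentiated libraries. Its log2 fold changes were 0.04 ± 0.18, 0.17 ± 0.19 and 0.16 ± 0.18, and its libraries overlapped between states.

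By subunit, 34, 31 and 31 of 45 large subunit genes fell and 0 rose in WT female, RlimKO-labelled and male cells, with medians of -0.65, -0.54 and -0.61. Of 32 small subunit genes 15, 9 and 22 fell and 0, 1 and 0 rose, with medians of -0.47, -0.27 and -0.57. Of all tested genes 24.3%, 25% and 25.7% fell, so the small subunit count in RlimKO-labelled cells was near the background. The ratio of large to small subunit counts was 1.70 to 1.78 in the 4 undifferentiated female libraries, and 1.52 to 1.64 in the 4 differentiated ones. In male libraries it was 1.56 and 1.60 before and 1.56 and 1.55 after. The difference between subunits was not tested.

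The stalk of the large subunit, which recruits the elongation factors, is made of Rplp0, Rplp1 and Rplp2. Per length, Rplp1 was the most abundant member in undifferentiated cells, with a mean of 2901 CPM per kb of transcript, followed by Rpl4 at 1957 and Rplp2 at 1904. In differentiated cells Rps15 led, at 1341 CPM per kb, followed by Rplp1 at 1325 and Rpl41 at 1237. The differences between neighbours in these orders were not tested. Rplp1 stood at 1260 to 1862 CPM in the 6 undifferentiated libraries and 580 to 718 CPM in the 6 differentiated ones. It fell by 1.16 ± 0.16, 1.05 ± 0.16 and 1.19 ± 0.16 in WT female, RlimKO-labelled and male cells, with adjusted p of 4.63e-05, 0.000115 and 2.8e-05. The states did not overlap. Rplp2 fell by 0.86 ± 0.16, 0.54 ± 0.16 and 1.19 ± 0.16, and Rplp0, which anchors the stalk, fell by 0.61 ± 0.16, 0.61 ± 0.16 and 0.82 ± 0.16.

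Rpl4, a core protein of the large subunit that lines the exit tunnel, went from 2780 to 3162 CPM in undifferentiated libraries to 1467 to 1959 CPM in differentiated ones. It fell by 1.01 ± 0.15, 0.70 ± 0.15 and 0.81 ± 0.15, with adjusted p of 6.3e-05, 0.00132 and 0.000334. Rps6, the small subunit protein phosphorylated downstream of mTOR, was at 847 to 1016 CPM before and 489 to 634 CPM after. Its log2 fold changes were -0.998 ± 0.15, -0.71 ± 0.15 and -0.55 ± 0.15, with adjusted p of 8.2e-05, 0.00137 and 0.00604. Rpsa, a small subunit protein also known as the laminin receptor precursor, fell by 0.70 ± 0.15, 0.46 ± 0.15 and 0.77 ± 0.14. Rps27a, which is made as a fusion with ubiquitin, changed by -0.40 ± 0.27, 0.22 ± 0.27 and -0.34 ± 0.26 and passed the test in no line. Its male libraries were far apart, at 170 and 356 CPM after differentiation.

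The single rise was Rps15a, a small subunit protein, in RlimKO-labelled cells. It stood at 338 and 378 CPM before and 533 and 516 CPM after differentiation there, at 390 and 418 CPM and then 450 and 475 CPM in WT female cells, and at 443 and 500 CPM and then 310 and 320 CPM in male cells. In each line the 2 states did not overlap, upward in the female lines and downward in the male line. The log2 fold change was 0.55 ± 0.14 (adjusted p = 0.00385) in RlimKO-labelled cells, 0.19 ± 0.13 (adjusted p = 0.247) in WT female cells and -0.58 ± 0.13 (adjusted p = 0.0019) in male cells. The change differed between the RlimKO-labelled and male lines by 1.13 ± 0.19 (adjusted p = 0.0086).

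Whether the start carried a pyrimidine run did not separate the members in one direction across lines. The median log2 fold change of the 36 tested members with a run was -0.70, -0.66 and -0.61 in WT female, RlimKO-labelled and male cells. That of the 22 without a run was -0.55, -0.41 and -0.72. Members with a run were thus lower in the female lines and higher in the male line, and this was not tested.

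The X chromosome carries 4 of the tested members (GENCODE vM21, GRCm38): Rpl10 (chrX:74270812-74273135, plus strand), Rpl36a (chrX:134585654-134588062, plus strand), Rps4x (chrX:102184941-102189394, minus strand) and Rpl39 (chrX:37082520-37085402, minus strand). Female cells carry a pair of X chromosomes, of which a single copy is silenced during differentiation, and male cells carry a single X. The median change on differentiation of these 4 was -1.40 in WT female, -1.39 in RlimKO-labelled and -0.91 in male cells, against -0.56, -0.46 and -0.58 for the 73 autosomal members.

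Rpl10, a late-joining large subunit protein near the peptidyl transferase centre, showed the clearest difference between lines. It was at 1259 and 1346 CPM in undifferentiated WT female, 1314 and 1364 CPM in RlimKO-labelled and 591 and 609 CPM in male libraries. After differentiation it was at 552 and 568, 576 and 604, and 453 and 550 CPM. The 4 undifferentiated female libraries stood above all 8 others, which lay between 453 and 609 CPM. It was higher in undifferentiated WT female than male cells by 1.12 ± 0.14 (adjusted p = 0.000358) and in RlimKO-labelled than male cells by 1.16 ± 0.14 (adjusted p = 0.000187), 2 comparisons that share the male libraries. On differentiation it fell by 1.22 ± 0.14 (adjusted p = 4.82e-06) and 1.18 ± 0.14 (adjusted p = 6.85e-06) in the female lines. The change in male cells was -0.26 ± 0.13 (adjusted p = 0.116). Without replicate 2 of the differentiated male cells this fell below 0.05, with an adjusted p of 0.00289. The difference between lines in the change was -0.96 ± 0.19 for WT female against male (adjusted p = 0.0227) and -0.92 ± 0.19 for RlimKO-labelled against male (adjusted p = 0.0213).

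Rps4x, the X-linked copy of a small subunit protein, was at 1762 and 1987 CPM, 1733 and 1936 CPM, and 1174 and 1230 CPM in undifferentiated WT female, RlimKO-labelled and male libraries. After differentiation the 6 libraries lay between 562 and 683 CPM. Both male libraries, at 643 and 683 CPM, lay above both WT female ones, at 607 and 641 CPM. The RlimKO-labelled pair, at 562 and 655 CPM, overlapped both. Rps4x fell by 1.59 ± 0.14, 1.59 ± 0.14 and 0.86 ± 0.14. In undifferentiated cells it was higher than in male cells by 0.64 ± 0.14 in WT female (adjusted p = 0.0126) and 0.61 ± 0.14 in RlimKO-labelled cells (adjusted p = 0.0114).

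Rpl36a, a large subunit protein at the tRNA exit site, was at 609 and 619 CPM, 651 and 683 CPM, and 420 and 427 CPM before differentiation in the same order of lines. After it, values were 210 and 191, 166 and 157, and 233 and 205 CPM, so the RlimKO-labelled libraries were the lowest. It fell by 1.61 ± 0.14, 2.05 ± 0.14 and 0.95 ± 0.13, and the change differed between RlimKO-labelled and male cells by -1.10 ± 0.19 (adjusted p = 0.0102). It was higher in undifferentiated WT female than male cells by 0.53 ± 0.13 (adjusted p = 0.0267), a call kept in 2 of 12 fits that left out a library (adjusted p up to 0.255), those without a differentiated male one. In differentiated cells it was lower in RlimKO-labelled than male cells by 0.44 on the log2 scale (-0.44 ± 0.14, adjusted p = 0.0476). This call was kept in 1 of 12 fits that left out a library (adjusted p up to 0.383) and in 4 of 11 other settings (adjusted p up to 0.303).

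Rpl39, a very short protein of the exit tunnel, went another way. Undifferentiated values were 327 and 279 CPM, 235 and 248 CPM, and 218 and 275 CPM. Both WT female libraries lay above those of the other lines, which overlapped each other. Differentiated values were 168 and 218, 178 and 287, and 91.2 and 124 CPM, lowest in the male libraries. It fell by 0.65 ± 0.23 in WT female cells (adjusted p = 0.0256) and by 1.19 ± 0.22 in male cells (adjusted p = 0.000448). In RlimKO-labelled cells the change was -0.04 ± 0.23 (adjusted p = 0.911). The WT female call was lost in 5 of 12 fits that left out a library (adjusted p up to 0.262): without either undifferentiated WT female library, either undifferentiated RlimKO-labelled library or replicate 1 of the differentiated WT female cells. In differentiated cells Rpl39 was higher than in male cells by 0.83 ± 0.22 in WT female (adjusted p = 0.0332) and by 1.12 ± 0.23 in RlimKO-labelled cells (adjusted p = 0.00622).

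**Figure D3:**
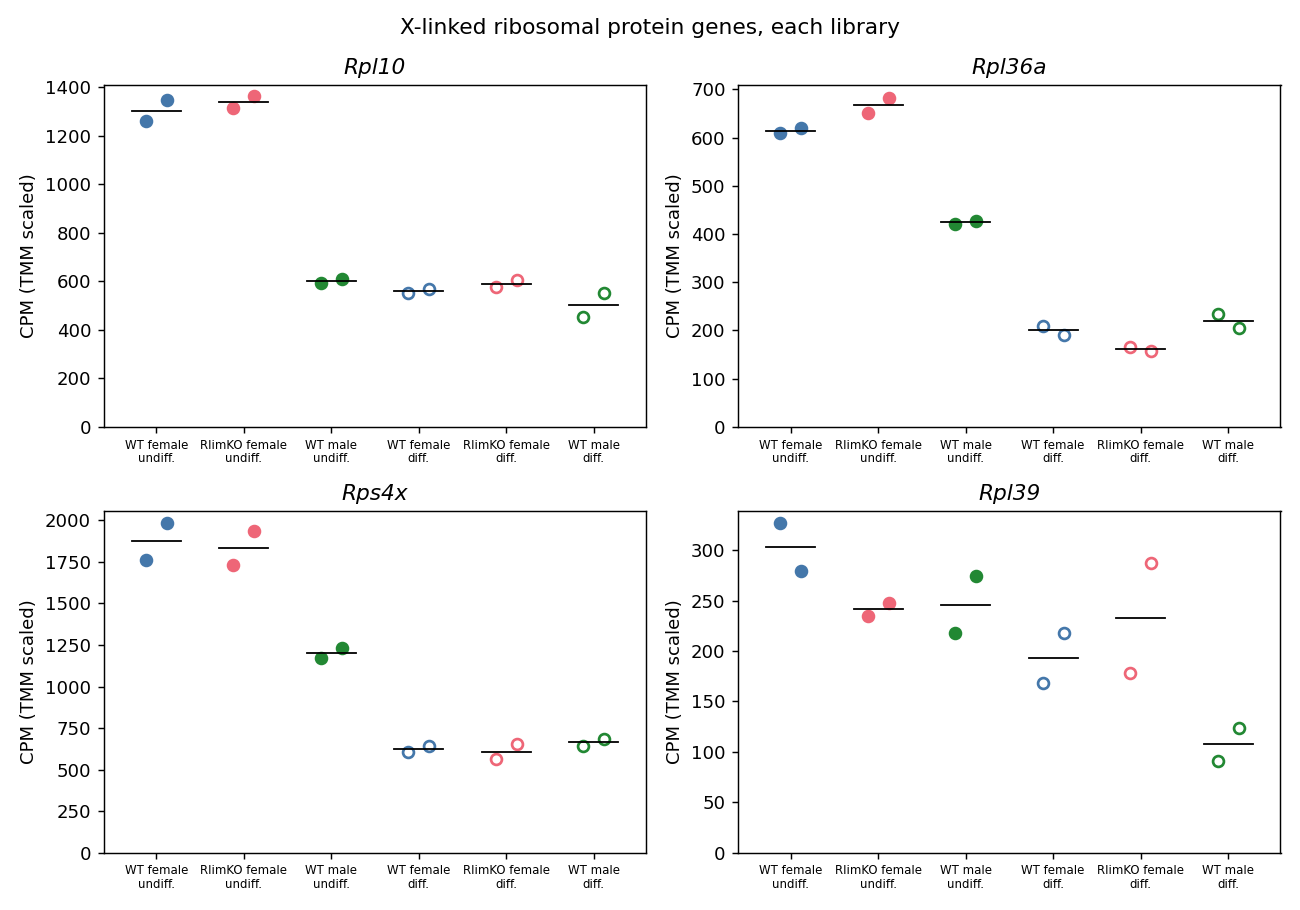
CPM of the 4 X-linked ribosomal protein genes in each library, by group; filled points are undifferentiated, open points differentiated, bars are means of 2 libraries. Rpl10, Rps4x and Rpl36a are higher in undifferentiated female than male libraries and low in all differentiated ones, while Rpl39 is not.

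Several ribosomal protein genes have diverged copies used in particular tissues. Rpl10l, an intronless autosomal copy of Rpl10 (chr12:66283379-66284401, minus strand) known for its role in male meiosis when the X is silent, was the member that fell most in the female lines. It was at 82.7 and 67.8 CPM, 82.7 and 75.4 CPM, and 20.6 and 24.4 CPM in undifferentiated WT female, RlimKO-labelled and male libraries, and at 0.207 to 3.55 CPM after differentiation. Its log2 fold changes were -4.41 ± 0.37, -5.58 ± 0.45 and -5.13 ± 0.48, with adjusted p of 3.98e-07, 2.32e-07 and 7.04e-07. With 1 to 9 counts in each differentiated library, it passed the filter only through undifferentiated ones. A gene so low after differentiation could enter the test only as a fall, so these p-values add no support. Its level was higher in undifferentiated WT female than male cells by 1.73 ± 0.30 (adjusted p = 0.00432) and in RlimKO-labelled than male cells by 1.80 ± 0.30 (adjusted p = 0.00225).

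Rpl10 and Rpl10l thus had the same order of groups before differentiation. Their annotated transcripts were identical at 83.6% of 757 aligned bases, with a longest shared run of 23 bases, and the part that shared reads play was not tested.

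Rpl39l, an autosomal copy of Rpl39 (chr16:10170226-10174911, plus strand), was counted rarely. It reached 5.3 to 15.1 CPM in undifferentiated and at most 2.29 CPM in differentiated libraries. Like Rpl10l, it passed the filter only through undifferentiated libraries, and the same limit holds for its falls. In WT female cells it fell by 2.37 ± 0.77 (adjusted p = 0.0184). In RlimKO-labelled cells 16 counts before stood against 1 after, a 25.2-fold ratio after scaling (95% interval 3.92 to 1058), and in male cells 37 stood against 1, a 69.2-fold ratio (11.7 to 2807). These intervals cover counting error only.

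Rps27l, a copy of Rps27 known as a target of p53, was at 183 and 174 CPM, 161 and 182 CPM, and 91.5 and 107 CPM before, and at 123 and 129, 84.8 and 78.6, and 74.8 and 88.1 CPM after differentiation. It fell by 0.50 ± 0.16 (adjusted p = 0.0196) in WT female and by 1.08 ± 0.17 (adjusted p = 0.000137) in RlimKO-labelled cells. In male cells the change was -0.28 ± 0.16 (adjusted p = 0.154). It was higher in undifferentiated WT female than male cells by 0.84 ± 0.17 (adjusted p = 0.00853). Rpl3l, the copy of Rpl3 known from heart and skeletal muscle, had 23 counts in all and was not tested.

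Between the RlimKO-labelled and WT female lines few ribosomal protein genes were called. In undifferentiated cells 0 of 77 passed edgeR's test, where 32 of all tested genes did (0.258%, with 0.121% higher and 0.137% lower). An unadjusted p under 0.05 was found for 4 members, and the share of all genes at that level is not given here. DESeq2 called 1, Rpl41. The median difference was -0.05, the half-width of the 95% interval had a median of 0.35, and for 72 of 77 members the interval lay within 1 on the log2 scale. Rpl41, which encodes the shortest of these proteins, was at 966 and 1096 CPM in RlimKO-labelled and 632 and 580 CPM in WT female libraries. That is a difference of 0.77 ± 0.16 with the libraries apart and an edgeR adjusted p of 0.061, the smallest among members.

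In differentiated cells, where 2.92% of all genes were called, 1 member was higher in RlimKO-labelled cells (background 1.03%) and 0 were lower (background 1.89%), with a median difference of 0.16 against -0.03 for all genes. This count rose to 18 with only the libraries compared. It also rose without either differentiated male library and without both libraries of extreme Rn45s share. The share of all genes called in those fits is not given here. Over the alternative fits the median difference, relative to that of all genes, ran from 0.08 to 0.28. The called member was Rps15, a protein of the small subunit head, at 830 and 986 CPM in RlimKO-labelled and 602 and 467 CPM in WT female libraries, a difference of 0.77 ± 0.15 (adjusted p = 0.0136). The call was lost without replicate 2 of the differentiated WT female cells (adjusted p = 0.171) and without either RlimKO-labelled library (adjusted p = 0.0537 and 0.162). Rps15 was also higher before differentiation, at 946 and 977 CPM against 681 and 641 CPM, a difference of 0.54 ± 0.15 with an adjusted p of 0.202. Differentiated RlimKO-labelled Rpl41, at 669 and 677 CPM, stood above WT female Rpl41, at 518 and 473 CPM, by 0.44 ± 0.15 (adjusted p = 0.168). The change on differentiation differed between these female lines in 0 of 77 members by edgeR (background 0.234%, with 0.0725% higher and 0.161% lower) and in 0 by DESeq2. An unadjusted p under 0.05 was found for 4 members, with no share of all genes given here. The median of members was 0.15, against -0.04 for all genes. Both fits share their spread with the differentiated male libraries. With only the libraries compared, some members were called for this change and between the undifferentiated female lines, as given further below.

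Of the 77 tested members, most of those called between female and male lines were higher in the female line. Members were called lower less often than all tested genes were, before and after differentiation. In undifferentiated cells 8 members were higher (background 3.87%) and 1 lower (background 2.81%) in WT female than in male cells, with 6.68% of all genes called. In RlimKO-labelled cells 8 were higher (background 6.08%) and 3 lower (background 4.45%), with 10.5% of all genes called. Medians were -0.04 and -0.05, against -0.02 and -0.03 for all genes. These 2 comparisons share the male libraries. Among called members other than the X-linked genes, Rpl10l and Rps27l, the largest difference was in Rpl21, a large subunit protein. Rps29 differed by more, -1.24 ± 0.46 and -1.43 ± 0.47, and did not pass the test (adjusted p = 0.13 and 0.0673). Rpl21 was at 676 and 600 CPM in WT female, 691 and 848 CPM in RlimKO-labelled and 341 and 312 CPM in male libraries, a difference of 0.97 ± 0.15 (adjusted p = 0.00184) and 1.24 ± 0.15 (adjusted p = 0.000204). After differentiation Rpl21 was at 391 and 353, 319 and 309, and 302 and 278 CPM, so the lines came together.

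The member lower in both female lines was Rpl27a, a large subunit protein, at 457 and 388 CPM, 424 and 338 CPM, and 682 and 695 CPM in undifferentiated WT female, RlimKO-labelled and male libraries. The differences from male cells were -0.71 ± 0.20 (adjusted p = 0.0476) and -0.86 ± 0.20 (adjusted p = 0.0148). The small subunit genes Rps20 and Rps18 were lower in RlimKO-labelled than male cells as well, by -0.79 ± 0.22 (adjusted p = 0.0363) and -0.70 ± 0.20 (adjusted p = 0.0375). Small subunit genes had medians of -0.20 and -0.21 against male cells in the 2 female lines, and large subunit genes 0.05 and 0.00.

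In differentiated cells 6 members were higher (background 4.82%) and 2 lower (background 4.48%) in WT female than male cells, with 9.29% of all genes called. In RlimKO-labelled cells 9 were higher (background 5.37%) and 1 lower (background 7%) than in male cells, with 12.4% of all genes called. Medians were -0.02 and 0.14, against -0.02 and -0.06 for all genes. Rps13, a small subunit protein, was at 163 and 140, 135 and 162, and 77.9 and 104 CPM in the 3 lines, lowest in both male libraries. It differed from male cells by 0.72 ± 0.17 (adjusted p = 0.0174) and 0.70 ± 0.17 (adjusted p = 0.0177), having been at 189 and 188, 171 and 170, and 245 and 233 CPM before. Rpl18 and Rpl24, large subunit proteins, were the 2 lower in WT female than male cells, by -0.66 ± 0.17 (adjusted p = 0.0286) and -0.44 ± 0.13 (adjusted p = 0.0467). In RlimKO-labelled cells Rpl13, of the large subunit, and Rps26, of the small subunit, were higher than in male cells by 0.82 ± 0.22 (adjusted p = 0.0283) and 0.78 ± 0.16 (adjusted p = 0.00634). Rpl23a was the member most above the median on differentiation in WT female cells, at 0.33 ± 0.19, and did not pass the test.

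**Figure D4:**
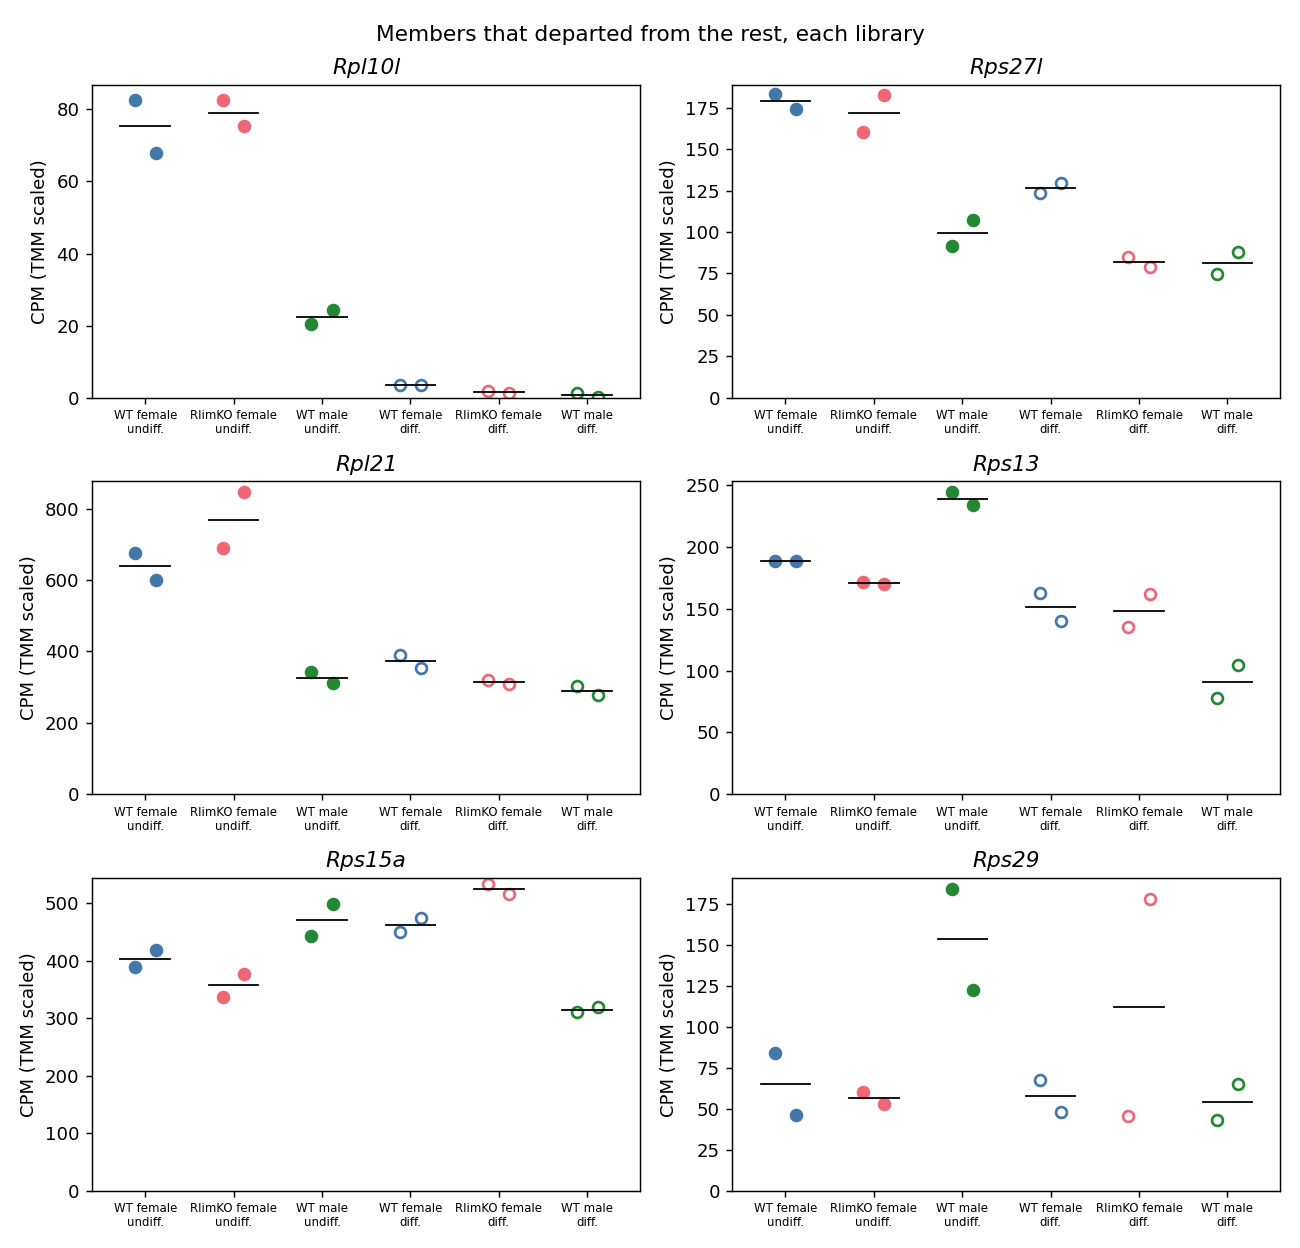
CPM of 6 ribosomal protein genes that departed from the rest, in each library, by group; filled points are undifferentiated, open points differentiated, bars are means of 2 libraries. Rpl10l is near 0 in all differentiated libraries, Rps13 is lowest in the differentiated male ones, and Rps29 differs widely within some groups.

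The change on differentiation itself differed from that of the male line in 3 members for WT female cells, 1 with a larger value (background 0.709%) and 2 with a smaller (background 0.644%), where 1.35% of all genes were called. For RlimKO-labelled cells it differed in 8, of which 4 had a larger value (background 1.02%) and 4 a smaller (background 1.51%), where 2.54% of all genes were called.

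The count of calls against the male line rested on the 2 differentiated male libraries, which all fits share through the spread. The share of all genes called in these and the other alternative fits is not given here. A move in the counts is therefore not a result about members alone. Relative to all genes, the members' median for WT female against male differentiated cells was 0.003. It was -0.16 without replicate 1 of the male cells and 0.23 without replicate 2. For RlimKO-labelled cells it was 0.20, and -0.01 without replicate 1. With only the libraries compared 0 and 0 members were called between WT female or RlimKO-labelled and male differentiated cells, in place of 8 and 10. In undifferentiated cells, where these libraries enter only the spread, leaving out replicate 2 gave 29 and 31 called members in place of 9 and 11. Leaving out another library of the groups compared, other than a differentiated male one, lowered the counts. In undifferentiated cells it gave 2 or 3 calls for WT female and 3 to 6 for RlimKO-labelled against male cells. In differentiated cells WT female against male gave 0 calls without either WT female library and 5 without either RlimKO-labelled one. RlimKO-labelled against male gave 6 and 1 without replicates 1 and 2 of the RlimKO-labelled cells. The calls made with every single library left out were those of Rpl10 and Rpl21 in undifferentiated WT female cells, these with Rpl10l in undifferentiated RlimKO-labelled cells, and Rps15a in differentiated RlimKO-labelled cells and in the difference in change between RlimKO-labelled and male cells. All other called differences between lines were lost without at least 1 library. The 3 differences in change between WT female and male cells fell to 0 or 1 without any library other than a differentiated male one. The 8 between RlimKO-labelled and male cells fell to between 1 and 5 without 1 library of undifferentiated RlimKO-labelled or male or of differentiated RlimKO-labelled cells. On differentiation of the male cells the median of members was -0.47 without replicate 1 and -0.85 without replicate 2.

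The calls on differentiation in the female lines moved with single libraries too. Here as well the share of all genes called in such fits is not given, so the counts are not results about members alone. Without replicate 2 of the undifferentiated, or replicate 1 of the differentiated, WT female cells 32 members were called in place of 49. Without replicate 2 of the undifferentiated RlimKO-labelled cells 25 were called, and without replicate 1 of the differentiated ones 24, in place of 41. Of the 49, 41 and 53 called members 31, 21 and 36 were called in every fit that left out 1 library, and none of them changed sign.

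The small subunit genes Rps29 and Rps16 differed widely between the libraries of some groups. Rps29, a zinc-binding protein of the small subunit, was at 45.3 and 178 CPM in differentiated RlimKO-labelled and at 184 and 123 CPM in undifferentiated male libraries. Its change was 1.05 ± 0.47 (adjusted p = 0.0791) in RlimKO-labelled cells, the largest of all members in that line, and -1.47 ± 0.43 (adjusted p = 0.00988) in male cells. Rps16 followed with 0.65 ± 0.44 in RlimKO-labelled cells (adjusted p = 0.239), and its male libraries were at 114 and 323 CPM after differentiation. Rpl29, of the large subunit, was the member most above the median in male cells, at 0.37 ± 0.22 (adjusted p = 0.167).

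A few members had almost no counts, which limits what the table can say about them. Rpl26 had 0 counts in all 12 libraries, Rpl30 had 10 in all and Rpl34 had 28, and with Rpl3l these were the 4 members not tested. Rps27 had 90 counts in all. The remaining members included 71 with at least 100 counts in every library. Of each transcript's 50-base words, 71.3% for Rpl26, 76.4% for Rpl30, 50.6% for Rpl34 and 98.6% for Rps27 also occurred in the transcript of another annotated gene. The median over all 81 members was 57.4%, and 31 members were above Rpl26. Such sharing was thus common in the family. The summary line for reads without a unique alignment held 0 in all 12 libraries. How reads with several matches were handled is not given in the sources used here. Levels between members are uncertain for that reason. The rows of named pseudogenes held only 2 to 29 counts in a library. Adding them left the called members on differentiation at 49, 41 and 53. So few counts could hardly change a call, so this does not bear on shared reads.

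Other genes of the machinery for making ribosomes and proteins are given list by list, to be read against the 24.3%, 25% and 25.7% of all tested genes that fell in WT female, RlimKO-labelled and male cells. Differences between lists were not tested. Of 66 tested ribosome biogenesis genes, which make and process ribosomal RNA and assemble the subunits, 57, 57 and 56 fell and 0 rose in WT female, RlimKO-labelled and male cells, with medians of -1.31, -1.13 and -1.34. Dkc1, the pseudouridine synthase of the H/ACA particles, changed by -2.39 ± 0.16, -3.15 ± 0.16 and -2.91 ± 0.16, and its partner Nhp2 fell by 2.57 ± 0.19 in WT female cells. Of 27 initiation factors 19 fell in each line, with medians of -0.80, -0.76 and -0.68, and 1 rose in WT female cells. Among them Eif2s3x, an X-linked subunit of the factor that brings the initiator tRNA, fell by 1.46 ± 0.16, 1.70 ± 0.17 and 0.68 ± 0.16.

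Of 76 mitochondrial ribosomal protein genes 33, 33 and 34 fell, with medians of -0.65, -0.71 and -0.69. Of 17 other translation genes with TOP messengers 10, 7 and 8 fell and 1 rose in each line, with medians of -0.53, -0.39 and -0.39. Npm1, a nucleolar chaperone, fell by 1.45 ± 0.17 in WT female cells. Of 12 regulators of ribosomal protein synthesis 4, 4 and 5 fell and 1 rose. Eif4ebp1, a translational repressor under mTOR, fell by 1.78 ± 0.16, 2.15 ± 0.17 and 1.44 ± 0.16. Tsc1, an inhibitor of mTOR, rose by 0.85 ± 0.21 in WT female cells (adjusted p = 0.00319).

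**Figure D5:**
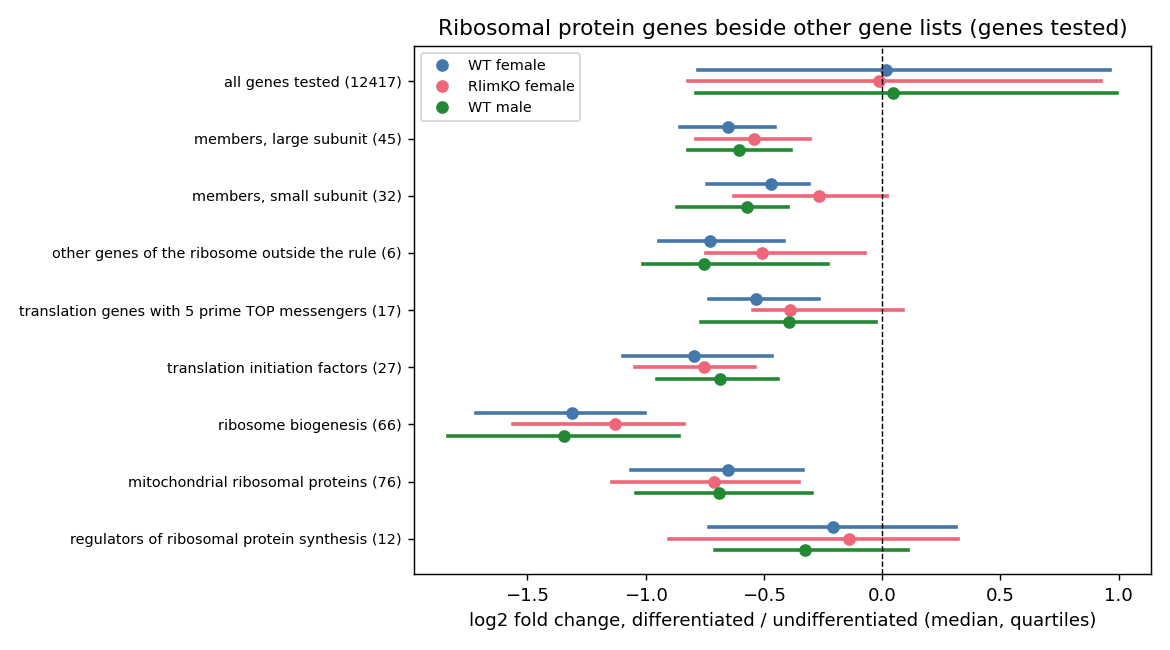
Median (point) and quartiles (bar) of the log2 fold change on differentiation for all tested genes, for the large and small subunit genes and for other lists of the translation machinery, in each line. Ribosome biogenesis genes lie furthest to the left, with medians of -1.31, -1.13 and -1.34.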

How the data were processed

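The deposited table held whole-number counts per gene symbol for 12 libraries, made by the authors. The submitters' processing notes name the mm10 genome, HTSeq 0.6.1p1 and TopHat2 2.0.12, and also edgeR 3.10.0 and bcl2fastq 2.16.0.10. Per the labels' protocols, bead-purified RNA was reverse-transcribed with a template switch, amplified, tagmented and sequenced on a NextSeq 500. No molecular identifiers and no strand marking were described, so amplification duplicates stay in the counts and overlapping antisense genes cannot be separated. The annotation, strand setting and alignment settings are not given in the sources used here. Of 5 summary lines none entered library size, and 45.4% to 53.3% of reads fell in no gene.

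Here, Rn45s and Lars2 were left out, counts were filtered with filterByExpr (minimum count 10), scaled by TMM and fitted with edgeR 4.0.16 in R 4.3.3 as 1 model of 12 libraries with 6 group means, tested by the quasi-likelihood F test. Adjusted p is the Benjamini-Hochberg value over 12417 genes, and SE is the log2 fold change divided by the root of F. A CPM value is a count divided by the TMM-scaled library size and multiplied by 1e+06. Positions and transcript lengths came from GENCODE vM21, where all 81 members matched. The members and lists were chosen with earlier results of these data known. Named genes were the X-linked members, diverged copies, Rps6, Rpsa, Rps27a and the stalk genes, the members with the largest called changes in each comparison, those furthest from the members' median on differentiation, the most and least abundant per kb, and those that failed the filter. The code was tested on simulated data. Alternatives were RLE and DESeq2 1.42.0, other TMM choices, Rn45s kept, no filter and a minimum count of 50, only the libraries compared, a replicate block, added pseudogene rows, 2 extreme libraries left out, and leave-one-out.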

Additional observations from a re-analysis of the deposited data

Results flagged for a closer look

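The change on differentiation differed between a female line and the male line, by a test of the difference itself, for 11 pairs of a member and a comparison. For WT female minus male cells these were Rpl10 at -0.96, Rps7 at -0.81 and Rps13 at 1.06 (log2). For RlimKO-labelled minus male cells they were Rpl10 at -0.92, Rpl21 at -1.12, Rpl29 at -1.31, Rpl36a at -1.10, Rps13 at 1.19, Rpl27a at 1.19, Rps15a at 1.13 and Rps21 at 1.03. The comparisons share the male libraries. With only the libraries compared none of the 11 was called, and under leave-one-out the Rps15a difference alone was called in every fit. Rps7 and Rps21 are small subunit proteins. Rps7 was at 841 and 830 CPM before and 464 and 458 CPM after in WT female cells, and at 621 and 649 CPM before and 577 and 652 CPM after in male cells. Rps21 was at 218 and 184 CPM before and 150 and 184 CPM after in RlimKO-labelled cells, and at 289 and 286 CPM before and 116 and 119 CPM after in male cells.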

How the results depend on the processing

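With 2 libraries per group and up to 67.7% of counts in Rn45s, small log2 differences were at the edge of what this depth resolves. No called member changed sign under any alternative run, and the 3 differentiation medians stayed negative. Relative to the median of all genes they lay between -0.69 and -0.55 in WT female, -0.53 and -0.35 in RlimKO-labelled and -0.78 and -0.49 in male cells, while the median of all genes itself moved by up to 0.15.

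Median changes that moved beyond the replicate spread were -0.51 in WT female cells with no filter and with the stricter filter and -0.54 with only the libraries compared. In RlimKO-labelled cells they were -0.37 with Rn45s kept or both extreme libraries left out and -0.35 with no filter. Against undifferentiated male cells they were -0.12 for WT female cells with no filter, and -0.13 for RlimKO-labelled cells with Rn45s kept or with no filter.

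With only the libraries compared the called members were 34 on male differentiation. They were 3 and 18 for RlimKO-labelled against WT female cells before and after differentiation, 25 and 0 for WT female against male, and 32 and 0 for RlimKO-labelled against male. The differences in change gave 8 (RlimKO-labelled minus WT female), 0 (WT female minus male) and 0 (RlimKO-labelled minus male). With both libraries of extreme Rn45s share left out, the counts after that of male differentiation, in the same order, were 4, 19, 30, 18, 31, 39, 6, 31 and 42. With no filter, calls were 1 and 5 between the female lines, 16 and 22 against undifferentiated male cells, and 1, 7 and 17 for the differences in change. The stricter filter gave 1 and 2 between the female lines and 5 for WT female minus male, DESeq2 gave 1, 2 and 7 there, and library totals alone gave 2 in differentiated female cells.

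Leaving out 1 library at a time, calls on differentiation ranged from 32 to 64 in WT female, 24 to 51 in RlimKO-labelled and 43 to 70 in male cells, with medians from -0.59 to -0.50, -0.46 to -0.27 and -0.85 to -0.47. Between the female lines calls ranged from 0 to 4 before (medians -0.07 to -0.02) and 0 to 17 after differentiation (0.067 to 0.26). Against male cells they ranged from 2 to 29 (-0.15 to -0.045) and 0 to 27 (-0.15 to 0.26) for WT female, and 3 to 31 (-0.17 to -0.078) and 1 to 43 (-0.02 to 0.42) for RlimKO-labelled cells. The differences in change gave 0 to 4 (0.12 to 0.27), 0 to 33 (-0.12 to 0.32) and 1 to 46 (0.21 to 0.58). Between the female lines the higher counts came without replicates 1 and 2 of the differentiated male cells, 3 and 4 before and 16 and 17 after differentiation, and 4 and 3 for the difference in change. The differences from male cells in change then gave 16 and 33 for WT female and 26 and 46 for RlimKO-labelled cells. The share of all genes called in these alternative fits is not given here, so the counts are not results about members alone. The cause of these shifts was not tested beyond the fits themselves.

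Shares with Rn45s and Lars2 kept were 2.42%, 2.32% and 2.35% in undifferentiated and 1.69% and 1.51% in differentiated WT female and RlimKO-labelled cells. With 6 more ribosomal genes added they were 5.20%, 5.12%, 5.30% and 3.25% in the first 4 groups. With a library left out the share was that of the other, from 2.63% to 3.42% in differentiated male cells and from 3.19% to 3.56% in RlimKO-labelled ones.

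Same-numbered replicates did not deviate together (correlations of -0.003, 0.028 and 0.016). Paired samples need not deviate together, so this does not settle whether the numbers pair the samples, which the labels do not say. With the replicate block 52, 44 and 55 members were called on differentiation.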
